A study of Homo sapiens with 28 samples.

Results

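The 8 genes NR0B1, NKX2-2, BCL11B, PRKCB, PPP1R1A, LIPI, CAV1 and JAK1 are widely cited targets that EWS-FLI1, the fusion transcription factor of Ewing sarcoma, switches on. They were taken by symbol from the 35488 genes of the deposited table, each symbol occurred in 1 row, and all 8 were among the 21025 genes tested. SK-N-MC is an established Ewing sarcoma line, and each culture carried 1 doxycycline-inducible short hairpin RNA: shScramble (the control), shFLI1 (labelled as EWS-FLI1 knockdown), shCHD4#1 or shCHD4#2 (each labelled as CHD4 knockdown). CHD4 is the chromatin-remodelling ATPase of the nucleosome remodelling and deacetylase complex. Every culture, the shScramble controls included, received 100 ng/ml doxycycline for 24 or 48 h. Each time had 5 shScramble, 3 shFLI1, 3 shCHD4#1 and 3 shCHD4#2 libraries of total RNA, 28 in all. EWS-FLI1 loss was induced by 1 hairpin only, and no source says whether a hairpin line was 1 clone or a pool. For the 5 shScramble libraries at 48 h the genotype field reads CHD4 knockdown while title and treatment name shScramble; they were grouped by title, and they held 11605 ± 1563 normalised counts of CHD4 (SD, n = 5), against 11550.1 ± 1236 in shScramble at 24 h. All values are from whole cultures, in which fewer cells of a type and less RNA per cell cannot be told apart.

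EWS-FLI1 joins the activation domain of EWSR1 to the DNA-binding domain of FLI1, an ETS family factor that reads the core motif GGAA. In Ewing sarcoma the fusion is known to bind single GGAA sites and also runs of GGAA repeats, where it can open chromatin and act as an enhancer, so that genes of unrelated lineages come to be expressed together. Among the 8 genes are 3 transcriptional regulators: NR0B1 (DAX1), an orphan nuclear receptor without a classical DNA-binding domain, NKX2-2, a homeobox factor of the ventral neural tube, and BCL11B, a zinc finger factor needed for T cell commitment. PRKCB, PPP1R1A and JAK1 act in signalling: a calcium- and diacylglycerol-dependent protein kinase C, an inhibitor of protein phosphatase 1 that protein kinase A switches on, and a tyrosine kinase bound to cytokine receptors. LIPI and CAV1 act at membranes: a phospholipase that makes lysophosphatidic acid from phosphatidic acid, and the scaffold protein of caveolae.

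The 250 bases before an annotated start are shown for 4 of the genes because they span the range of GGAA content found among the 8. Sequences are from RefSeq on GRCh38.p14, are written 5′ to 3′ on the strand of the gene, and carry each GGAA (or TTCC, the same motif on the other strand) in capitals. A window was found for 7 of the 8 genes, 13 windows in all, and none was matched for PPP1R1A. The windows are NR0B1, chrX:30309391-30309640, minus strand; BCL11B, chr14:99272198-99272447, minus strand; PRKCB, chr16:23835733-23835982, plus strand; and CAV1, chr7:116524759-116525008, plus strand.
NR0B1: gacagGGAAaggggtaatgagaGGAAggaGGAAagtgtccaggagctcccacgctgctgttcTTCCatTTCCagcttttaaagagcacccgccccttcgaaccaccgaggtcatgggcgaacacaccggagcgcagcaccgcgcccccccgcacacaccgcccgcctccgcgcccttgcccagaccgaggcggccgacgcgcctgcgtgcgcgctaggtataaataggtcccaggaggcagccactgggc
BCL11B: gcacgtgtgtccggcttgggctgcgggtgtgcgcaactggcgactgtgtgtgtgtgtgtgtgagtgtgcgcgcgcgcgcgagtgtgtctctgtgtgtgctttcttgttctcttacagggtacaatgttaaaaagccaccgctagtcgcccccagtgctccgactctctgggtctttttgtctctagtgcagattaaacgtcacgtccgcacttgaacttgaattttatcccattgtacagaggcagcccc
PRKCB: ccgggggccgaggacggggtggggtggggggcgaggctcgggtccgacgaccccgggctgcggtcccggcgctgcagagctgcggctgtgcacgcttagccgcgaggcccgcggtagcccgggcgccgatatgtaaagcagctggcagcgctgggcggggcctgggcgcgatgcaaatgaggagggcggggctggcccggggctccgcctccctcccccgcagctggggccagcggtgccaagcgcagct
CAV1: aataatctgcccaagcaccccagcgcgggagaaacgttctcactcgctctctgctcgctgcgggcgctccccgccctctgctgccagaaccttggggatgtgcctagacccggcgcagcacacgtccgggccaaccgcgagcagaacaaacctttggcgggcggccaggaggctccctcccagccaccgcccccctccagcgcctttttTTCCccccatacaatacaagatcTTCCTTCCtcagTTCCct
The NR0B1 window held 5 matches to GGAA on either strand, and those of BCL11B and PRKCB held 0. Of the 3 windows of CAV1 the one shown held 4, another, which overlaps it, 5, and one further downstream 0. In the window shown 2 matches abut as TTCCTTCC, the other strand of GGAAGGAA, 18 bases before the annotated start. GGAA on either strand was found in 92.7% of the 35116 windows of this length, so a match is common, whereas GGAAGGAA on either strand was found in 3.06%. LIPI had windows with 2 and 4 matches, the 3 windows of JAK1 had 4, 2 and 1, and the 2 windows of NKX2-2 had 1 and 0. A match describes the letters only, distal repeats lie outside these windows, and which start the cells used was not measured.

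Recovered reads ranged from 46102707 to 64775441 per library. The libraries were of 2 kinds: replicates 1 and 2 of shScramble, shCHD4#1 and shCHD4#2 held 0.313 to 0.388% of reads in processed pseudogenes (first kind, 12 libraries), and all others, every shFLI1 library included, held 0.223 to 0.283% (second kind, 16 libraries). Of the hairpin targets, CHD4 was at 23.7 to 27.5% of the control mean with its 2 hairpins, and FLI1 at 44.7% with shFLI1 at 24 h and 44.1% at 48 h. Reads of FLI1 come from the fusion and from any FLI1 itself, which the table does not part. Markers of an Ewing sarcoma line (7 of 7 in the table, NR0B1 and NKX2-2 among them) were expressed, and the T and B cell list (6 of 9 in the table) summed to 133 to 409 in all libraries. In that list CD3E and CD3G stayed at or below 4.46 normalised counts in every library, while PTPRC reached 333, CD79A 322 and CD79B 80.0. The summed level of 6 fibroblast markers was 1510.3 to 3077 in shScramble at 48 h and 6840.4 to 9752 with shFLI1. There PDGFRB, a mesenchymal growth factor receptor, reached 8948 and made up most of the sum in that library. By limma (adjusted p under 0.05) 5 of the 6 were higher and 1 lower with shFLI1 at 48 h. Of all tested genes 32.2% were higher and 31.7% lower. With shCHD4#2 at 48 h fibroblast markers summed to 825 to 1489, and 3 skeletal muscle markers to 474 to 570, against 247 to 306 in shScramble; both lie outside the control range. Mitochondrial ribosomal RNA was 16.17 to 17.98% of reads in shScramble at 48 h and 22.12 to 22.46% with shFLI1. The part of these shifts in the results below was not tested.

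All 8 genes were well expressed in control cells. Per kilobase of merged exons (GENCODE release 29), a scale on which genes can be compared, the 10 shScramble libraries held 8959 ± 759 normalised counts of LIPI (SD, n = 10), 6875 ± 1835 of CAV1 and 4848 ± 272 of JAK1. PPP1R1A followed at 1681 ± 275, NKX2-2 at 1342 ± 172, BCL11B at 1090.3 ± 111 and PRKCB at 1042 ± 134. NR0B1 was lowest, at 574 ± 132. CAV1 and NR0B1 therefore varied most among control libraries relative to their level, which limits how small a change in either could be seen. Some genes also split by library kind among the controls, without overlap. First-kind controls were lower than second-kind ones in NKX2-2 (2252 to 2619 against 2908 to 3195 normalised counts over both times), in PPP1R1A (5415 to 6178 against 6356 to 8958 at 24 h, 5471 to 5787 against 6731 to 7356 at 48 h) and in NR0B1 at 48 h (779 to 978 against 1464 to 1611). In BCL11B at 24 h they were higher (9732 to 10199.7 against 7453 to 8175).

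**Figure D1:**
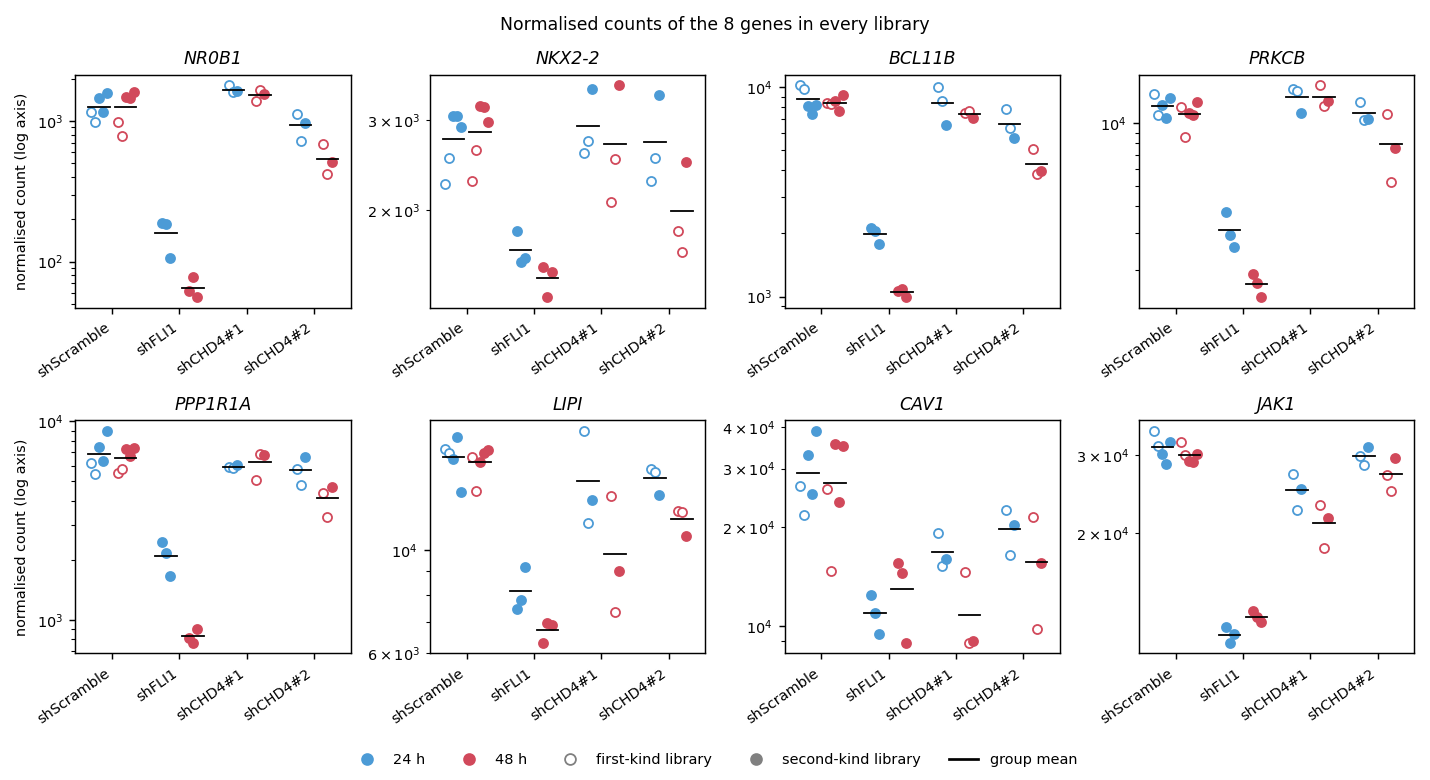
Normalised counts (log axis) of the 8 genes in each of the 28 libraries, by hairpin, at 24 h (blue) and 48 h (red); open points are first-kind libraries, filled points second-kind ones, and black lines group means. NR0B1 with shFLI1 at 48 h lies between 56.1 and 78.2, far below all other groups but shFLI1 at 24 h, while the CAV1 groups overlap widely.

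The first comparison asks what direct loss of the fusion did to its targets. With shFLI1 all 8 genes were lower than in shScramble at 24 h and all 8 at 48 h (limma on log2 of the normalised count plus 1, adjusted p under 0.05 over all genes tested), where 22.5% and 31.7% of all tested genes were called lower. The genes were chosen as known targets, so their direction is not independent evidence. Their median log2 fold change was -1.55 at 24 h and -1.95 at 48 h, beside 0.0038 and 0.0090 over all tested genes. The size of the fall ranged from 51.6% of the control mean left at 48 h (NKX2-2) to 5.17% left (NR0B1). In second-kind libraries alone, all 8 were again called lower at both times.

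NR0B1 (ENSG00000169297; GRCh38, chromosome X, 30304206 to 30309598, minus strand), which acts mainly as a repressor of other nuclear receptors, fell furthest. Its normalised counts in shScramble were 1155, 985, 1449.8, 1149 and 1588 at 24 h and 978, 779, 1475, 1464 and 1611 at 48 h. With shFLI1 they were 187, 184 and 106 at 24 h and 61.4, 78.2 and 56.1 at 48 h. No shFLI1 library came near a control, and each 48 h library lay under each 24 h one. The log2 fold change was -3.01 (SE 0.20, limma adjusted p = 4.7e-08) at 24 h and -4.21 (SE 0.23, adjusted p = 1.7e-09) at 48 h. The library with the fewest NR0B1 reads still held 52, so the remaining level was measured and not at the detection floor.

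BCL11B (ENSG00000127152; chromosome 14, 99169287 to 99271524, minus strand) fell from 7453 to 10199.7 normalised counts in the control libraries at 24 h to 2115, 2059 and 1776 with shFLI1. At 48 h the controls held 7659 to 9102 and the shFLI1 libraries 1062, 1086 and 995. The 3 knockdown libraries at 48 h spanned 995 to 1086, and their mean was 12.5% of the control. The log2 fold change was -2.13 (SE 0.15, adjusted p = 5.7e-08) and then -3.00 (SE 0.09, adjusted p = 1.8e-11). The window printed above for BCL11B holds 0 matches to GGAA. NKX2-2 (ENSG00000125820; chromosome 20, 21511010 to 21514026, minus strand) changed less than the other regulators. Its shFLI1 libraries held 1817, 1584 and 1609.7 normalised counts at 24 h and 1544, 1350.1 and 1515 at 48 h, all below the lowest control (2252 at 24 h, 2279 at 48 h). Its log2 fold change was -0.72 (SE 0.14, adjusted p = 0.00080) and -0.95 (SE 0.17, adjusted p = 0.00021).

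The signalling genes PRKCB and PPP1R1A lost most of their RNA. PRKCB (ENSG00000166501; chromosome 16, 23835946 to 24220611, plus strand) was at 3761, 2922 and 2556 normalised counts with shFLI1 at 24 h and at 1917, 1720.3 and 1482 at 48 h, against 10549 to 13757 and 8594 to 12549 in the controls. Its log2 fold change was -1.98 (SE 0.14, adjusted p = 6.2e-08) and -2.69 (SE 0.19, adjusted p = 2.2e-08). PPP1R1A (ENSG00000135447; chromosome 12, 54575387 to 54588659, minus strand) was at 2479, 2173 and 1677 at 24 h and at 810.2, 769 and 909 at 48 h, against 5415 to 8958 and 5471 to 7356. Control and knockdown values were separate at each time in both genes. For PPP1R1A the log2 fold change went from -1.70 (SE 0.16, adjusted p = 1.0e-06) to -2.97 (SE 0.14, adjusted p = 4.9e-10). PDE1B, which the annotation places across PPP1R1A on the opposite strand, was also lower (log2 -1.62 at 24 h and -1.74 at 48 h), and the strand setting of read counting is not given, so shared reads cannot be told apart.

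JAK1 (ENSG00000162434; chromosome 1, 64833229 to 64966504, minus strand) had the tightest values. Controls held 28581 to 33947 normalised counts at 24 h and 28912 to 32035 at 48 h. The shFLI1 libraries held 12231, 11284 and 11797 at 24 h and 13327, 12898 and 12546 at 48 h, so that the 24 h libraries were all under the 48 h ones. The log2 fold change was -1.41 (SE 0.09, adjusted p = 2.7e-08) and -1.22 (SE 0.08, adjusted p = 1.8e-08). RAVER2, which overlaps JAK1 on the opposite strand, was at log2 -0.38 and -0.68.

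LIPI and CAV1, the membrane genes, were at 51.5 and 37.6% of the control mean at 24 h and at 43.6 and 48.0% at 48 h, beside 37.7 and 43.1% for JAK1. LIPI (ENSG00000188992; chromosome 21, 14108813 to 14210891, minus strand) was at 7460 to 9190.4 normalised counts at 24 h and 6318 to 6985 at 48 h with shFLI1, against 13318 to 17495 and 13368 to 16374 in the controls. Its log2 fold change was -0.96 (SE 0.14, adjusted p = 5.1e-05) and -1.20 (SE 0.14, adjusted p = 3.6e-06). AP001347.1, annotated as antisense, and the processed pseudogene ERLEC1P1 overlap LIPI on the opposite strand, so shared reads cannot be told apart here either. CAV1 (ENSG00000105974; chromosome 7, 116524785 to 116561184, plus strand) had shFLI1 values of 12393, 10925 and 9481 at 24 h, under every control (21709 to 39001), with a log2 fold change of -1.39 (SE 0.17, adjusted p = 1.4e-05). At 48 h they were 15529, 14516 and 8900.4, and shScramble replicate 2, at 14642, overlapped them. The other 4 controls held 23716 to 35612. The 48 h log2 fold change was -1.03 (SE 0.31, adjusted p = 0.0089), and it was -0.78 (adjusted p = 0.063) without shFLI1 replicate 3.

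**Figure D2:**
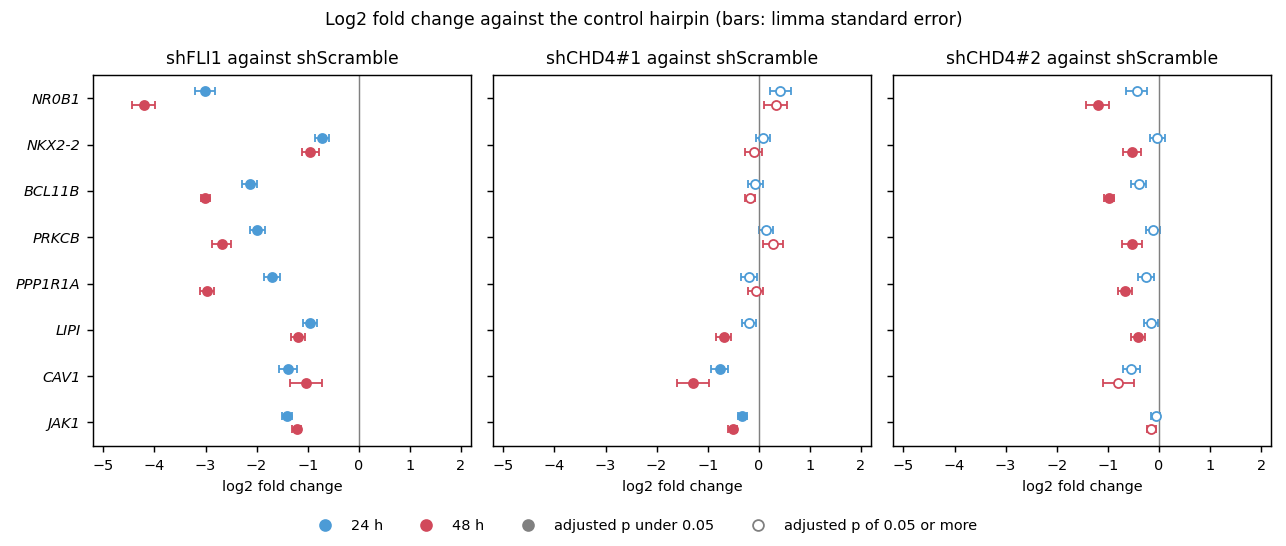
Log2 fold change against shScramble of the 8 genes for each hairpin at 24 h (blue) and 48 h (red), with limma's standard error as bars; filled points passed an adjusted p of 0.05. With shFLI1 all 16 points are filled and run from -4.21 to -0.72; with shCHD4#1 only LIPI, CAV1 and JAK1 have filled points, and with shCHD4#2 the 6 filled points are all at 48 h.

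The second question was whether the fall was still deepening between 24 and 48 h. The difference of the shFLI1 fold changes, 48 h minus 24 h, was called for 3 of the 8 genes, NR0B1, BCL11B and PPP1R1A, all further down at 48 h, where 16.7% of all tested genes were called in either direction. It was -1.21 (SE 0.32, adjusted p = 0.0098) for NR0B1, -0.87 (SE 0.18, adjusted p = 0.00099) for BCL11B and -1.27 (SE 0.22, adjusted p = 0.00019) for PPP1R1A. As a share of the control mean, NR0B1 went from 12.6 to 5.17%, BCL11B from 22.7 to 12.5% and PPP1R1A from 30.7 to 12.7%. PRKCB went from 25.5 to 15.5% with a difference of -0.70 (SE 0.25), and its adjusted p of 0.052 fell to 0.0080 in second-kind libraries alone. NKX2-2 (-0.23, adjusted p = 0.57), LIPI (-0.24, adjusted p = 0.48), CAV1 (0.36, adjusted p = 0.58) and JAK1 (0.19, adjusted p = 0.28) were not called. FLI1 itself was at the same share of control at both times, with a difference of -0.02 (SE 0.15, adjusted p = 0.96).

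The third comparison asks whether loss of CHD4 lowered the same targets. With shCHD4#1 CAV1 and JAK1 were lower at 24 h (2 of 8, where 6.14% of all tested genes were called lower), and LIPI, CAV1 and JAK1 at 48 h (3 of 8, where 15.5% were). At 48 h the LIPI values were 13068, 7348 and 8996, all under the lowest control (13368), with a log2 fold change of -0.69 (SE 0.14, adjusted p = 0.0022). CAV1 values were 14568, 8919 and 9043, all under the lowest control too (14642), with a log2 fold change of -1.29 (SE 0.31, adjusted p = 0.0063). JAK1 values were 23132, 18436 and 21644 against 28912 or more, with a log2 fold change of -0.52 (SE 0.08, adjusted p = 0.00050). In all 3 genes replicate 1 was the highest of the hairpin's libraries. At 24 h CAV1 was at log2 -0.77 (SE 0.17, adjusted p = 0.010) and JAK1 at -0.33 (SE 0.09, adjusted p = 0.030). The CAV1 call at 24 h ended without shCHD4#1 replicate 2 (-0.70, adjusted p = 0.073). That of JAK1 ended without the same library, without shCHD4#1 replicate 3 or shScramble replicate 1 (adjusted p from 0.063 to 0.20), with quantile normalisation (-0.19, adjusted p = 0.27) and in a fit of only the 2 groups (adjusted p = 0.095).

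The other 5 genes were not called with shCHD4#1 at either time. NR0B1 was the highest of all 8 groups at 24 h: its libraries held 1797, 1599.7 and 1620.0 normalised counts, all above the highest control (1588). Its log2 difference of 0.42 (SE 0.20) had an adjusted p of 0.21, and at 48 h it was 0.33 (SE 0.23, adjusted p = 0.31). BCL11B (-0.07 and -0.17), PRKCB (0.13 and 0.28), PPP1R1A (-0.19 and -0.07) and NKX2-2 (0.08 and -0.10) had adjusted p from 0.17 to 0.81. FLI1 was at log2 -0.16 and -0.12 with this hairpin (adjusted p = 0.35 and 0.47).

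With shCHD4#2 no gene of the 8 was called at 24 h, where 7.01% of all tested genes were called lower. By limma 3 of them, NR0B1, BCL11B and CAV1, had an unadjusted p under 0.05, and edgeR's quasi-likelihood test called 0. The log2 differences of these 3 were -0.43 (SE 0.20, adjusted p = 0.20), -0.40 (SE 0.15, adjusted p = 0.10) and -0.54 (SE 0.17, adjusted p = 0.059). With the replicate number as a block, BCL11B (-0.50, adjusted p = 0.0034) and CAV1 (-0.45, adjusted p = 0.043) were called. For BCL11B replicates 1, 2 and 3 held 10199.7, 9732 and 8078 in shScramble and 7824, 6372 and 5711 with shCHD4#2. Replicates 4 and 5 of shScramble, second-kind libraries like replicate 3, held 7453 and 8175. These counts therefore do not part replicate number from library kind.

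At 48 h 6 of the 8 genes were lower with shCHD4#2: the regulators NR0B1, NKX2-2 and BCL11B, the signalling genes PRKCB and PPP1R1A, and LIPI (20.3% of all tested genes were called lower). NR0B1 libraries held 687, 417 and 514 normalised counts, all under the lowest control (779), with a log2 fold change of -1.20 (SE 0.23, adjusted p = 0.00092). BCL11B libraries held 5050.4, 3851 and 3974, all under the lowest control (7659), with a log2 fold change of -0.98 (SE 0.09, adjusted p = 3.2e-06). PPP1R1A libraries held 4340.2, 3320.2 and 4693 against 5471 or more, with a log2 fold change of -0.67 (SE 0.14, adjusted p = 0.0019). In these 3 genes the hairpin and its controls did not overlap, and no library, when left out, ended the call. FLI1 was itself lower in the same libraries (log2 -0.34, SE 0.12, adjusted p = 0.029, at 78.6% of control), as was EWSR1 (-0.39, SE 0.10, adjusted p = 0.0087). EWSR1 was called in 7 and FLI1 in 3 of the 8 fits that left out a library, and the part of lower FLI1 in the fall of its targets was not tested. EWSR1 at 48 h was also lower with shFLI1 (-0.35, limma adjusted p = 0.0077), and it was at -0.28 with shCHD4#1 (adjusted p = 0.058). Between the CHD4 hairpins at 48 h neither gene was called. FLI1 differed by 0.22 (SE 0.13, adjusted p = 0.19) and EWSR1 by 0.11 (SE 0.11, adjusted p = 0.48).

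The other 3 calls at 48 h were less firm. NKX2-2 held 1823, 1654 and 2488 normalised counts, the last above the lowest control (2279), with a log2 fold change of -0.53 (SE 0.17, adjusted p = 0.024). That overlap is between library kinds. Within the first kind NKX2-2 was at 1654 and 1823 against 2279 to 2619 in controls. Its second-kind library held 2488 against 2973 to 3195. PRKCB held 11082, 5236 and 7558, the first inside the control range of 8594 to 12549, with -0.52 (SE 0.19, adjusted p = 0.042). LIPI held 12119, 12076 and 10707, all below the controls (13368 or more), with -0.41 (SE 0.14, adjusted p = 0.033). Without single libraries these calls ended in 4 of 8 fits for NKX2-2 (shScramble replicates 3 and 4, shCHD4#2 replicates 1 and 2; adjusted p to 0.14) and in 6 of 8 for both PRKCB and LIPI (shScramble replicates 1, 3, 4 and 5, shCHD4#2 replicates 2 and 3; adjusted p to 0.30 and 0.12). The PRKCB value ran from -0.80 without shCHD4#2 replicate 1 to -0.26 without replicate 2. With the replicate block LIPI was no longer called (-0.35, adjusted p = 0.095), nor with quantile normalisation (-0.23, adjusted p = 0.22). The PRKCB call also ended with quantile normalisation (-0.37, adjusted p = 0.12), without the filter, in a fit of only the 2 groups and with edgeR (adjusted p = 0.055, 0.088 and 0.078). CAV1, at 21450.1, 9812 and 15558 (log2 -0.79, SE 0.31, adjusted p = 0.054), and JAK1, at 27055, 24907 and 29532 (-0.15, SE 0.08, adjusted p = 0.19), were not called. CAV1 was called without shScramble replicate 2 (adjusted p = 0.011) and without shCHD4#2 replicate 1 (-1.06, adjusted p = 0.022), and was at -0.50 without shCHD4#2 replicate 2. Among second-kind libraries alone, where shCHD4#2 has 1 library that is taken to vary like the others, 7 of the 8 were called, CAV1 included (-0.99, adjusted p = 0.045).

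The change of the CHD4 effect from 24 to 48 h was called in no gene of the 8 with either hairpin, where 0.00476% of all tested genes were called with shCHD4#1 and 0.989% with shCHD4#2. By limma 1 gene (LIPI) and 3 genes (NR0B1, NKX2-2 and BCL11B) had an unadjusted p under 0.05, and edgeR called 0 and 0. The largest difference with shCHD4#2 was -0.77 (SE 0.32, adjusted p = 0.26), in NR0B1. BCL11B had -0.58 (SE 0.18, adjusted p = 0.10), which was called with the replicate block (adjusted p = 0.020).

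Direct loss was then compared with each CHD4 hairpin. Against shCHD4#1 all 8 genes were lower with shFLI1 at 24 h (22.6% of all tested genes were called lower) and 7 at 48 h (31.4%). CAV1 was the exception at 48 h: shFLI1 held 12982 ± 3571 normalised counts (SD, n = 3) and shCHD4#1 10843 ± 3226, a log2 difference of 0.26 (SE 0.34, adjusted p = 0.53). At 24 h CAV1 was lower with shFLI1 by 0.62 on the log2 scale (SE 0.19, adjusted p = 0.016), and that call ended without shCHD4#1 replicate 1, without shFLI1 replicate 3 (adjusted p = 0.068 and 0.069). LIPI at 48 h was at -0.50 (SE 0.16, adjusted p = 0.012), and at -0.27 (adjusted p = 0.056) without shCHD4#1 replicate 1. The other 6 genes were at -0.70 (JAK1) to -4.54 (NR0B1) at 48 h, with adjusted p of 0.0014 or less.

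Against shCHD4#2 all 8 were lower with shFLI1 at 24 h (21.7% of all tested genes) and 6 at 48 h (30.8%). The largest differences at 48 h were in NR0B1 (-3.01, SE 0.25, adjusted p = 1.6e-07), PPP1R1A (-2.30, SE 0.16, adjusted p = 2.2e-08), PRKCB (-2.16, SE 0.21, adjusted p = 7.7e-07) and BCL11B (-2.02, SE 0.10, adjusted p = 1.5e-09). The 6 genes that shCHD4#2 lowered were left at 42.8% (NR0B1), 69.8% (NKX2-2), 51.1% (BCL11B), 72.3% (PRKCB), 63.1% (PPP1R1A) and 75.4% (LIPI) of control, where shFLI1 left 5.17, 51.6, 12.5, 15.5, 12.7 and 43.6%. JAK1 (-1.07, SE 0.09) and LIPI (-0.79, SE 0.16) were lower with shFLI1 too. NKX2-2 was at -0.42 (SE 0.19, adjusted p = 0.071) and was called with library kind as a term (-0.73, adjusted p = 5.8e-05). CAV1 was at -0.24 (SE 0.34, adjusted p = 0.57).

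The 2 CHD4 hairpins were compared with each other; CHD4 RNA was not called different between them (log2 -0.04, SE 0.12, adjusted p = 0.90 at 24 h and 0.21, SE 0.11, adjusted p = 0.16 at 48 h), though at 48 h its libraries did not overlap (2959 to 3482 normalised counts with shCHD4#1, 2722 to 2801 with shCHD4#2). At 48 h 5 of the 8 differed, where 37.9% of all tested genes were called in either direction, a share near enough to the background that it says little about the genes as a set. NR0B1 (1.53, SE 0.25, adjusted p = 0.00042), BCL11B (0.80, SE 0.10, adjusted p = 5.9e-05), PRKCB (0.80, SE 0.21, adjusted p = 0.0090) and PPP1R1A (0.60, SE 0.16, adjusted p = 0.0077) were higher with shCHD4#1. JAK1 was lower with it (-0.37, SE 0.09, adjusted p = 0.0071). NKX2-2 was at 0.43 (SE 0.19, adjusted p = 0.089) and was called with the replicate block (adjusted p = 0.025). LIPI (-0.29, SE 0.16, adjusted p = 0.17) and CAV1 (-0.49, SE 0.34, adjusted p = 0.28) were not called. At 24 h NR0B1 alone was called (0.86, SE 0.23, adjusted p = 0.028; 9.62% of all tested genes in either direction). That call ended in 5 of 6 fits that left out a library (each shCHD4#1 replicate, and shCHD4#2 replicates 2 and 3; adjusted p from 0.057 to 0.13). BCL11B at 24 h (0.33, SE 0.16, adjusted p = 0.24) was called with the replicate block (adjusted p = 0.023).

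**Figure D3:**
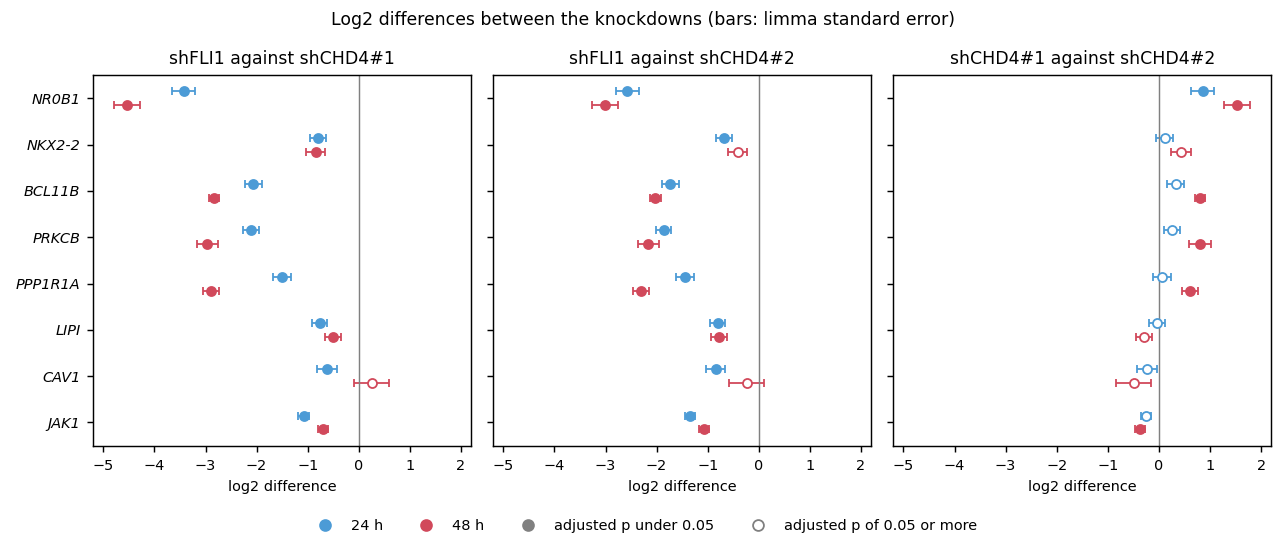
Log2 differences between knockdowns in the 8 genes, shFLI1 against each CHD4 hairpin and shCHD4#1 against shCHD4#2, at 24 h (blue) and 48 h (red), with limma's standard error as bars and filled points for an adjusted p under 0.05. At 48 h CAV1 is unfilled in all 3 panels (0.26, -0.24 and -0.49), and NR0B1 has the largest difference in each (-4.54, -3.01 and 1.53).

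Ordered by mean level, the 8 groups had the same 3 groups lowest, in the same order, in 5 genes. For NR0B1, BCL11B and PPP1R1A the order from the bottom was shFLI1 at 48 h, shFLI1 at 24 h and shCHD4#2 at 48 h, and the ranges of these 3 groups overlapped neither each other nor the next group. In PRKCB, the fourth, shCHD4#2 at 48 h overlapped the next group above. In NKX2-2, the fifth, and in LIPI shFLI1 at 48 h was lowest and separate, and shFLI1 at 24 h overlapped its upper neighbour, shCHD4#2 at 48 h for NKX2-2 and shCHD4#1 at 48 h for LIPI. JAK1 was lowest with shFLI1 at 24 h (11771 ± 474 normalised counts), then with shFLI1 at 48 h (12924 ± 391), both separate, and shCHD4#1 at 48 h came next (21071 ± 2400.0). In CAV1 every pair of neighbours overlapped, and the lowest mean was that of shCHD4#1 at 48 h. The upper groups, shScramble at both times among them, overlapped their neighbours in every gene.

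A longer list of 41 other genes described as activated by EWS-FLI1, of which 38 were tested, was read in the same way. It was chosen with earlier results of these data known, so its counts are not independent evidence. With shFLI1 31 were lower and 2 higher at 24 h, and 29 were lower and 4 higher at 48 h, with medians of -1.61 and -1.70. The genes named next were picked by the smallest adjusted p of the list with shFLI1 at 48 h. Their fold changes there were selected and do not stand for the list. At 48 h STEAP1, a membrane protein of the cell surface, was at log2 -4.15 and JPH1, a junctophilin, at -3.41. IL1RAP, the interleukin-1 receptor accessory protein, was at -3.02 and NPY1R, a neuropeptide Y receptor, at -3.50. With shCHD4#2 23 of the 38 were lower and 1 higher at 48 h (median -0.72), STEAP1 (-1.25, adjusted p = 2.8e-05) and NPY1R (-1.65, adjusted p = 3.0e-06) among them. With shCHD4#1 9 were lower and 1 higher (median -0.12): STEAP1 was at -0.89 (adjusted p = 0.00068) and NPY1R at -1.20 (adjusted p = 7.5e-05), while JPH1 (-0.08) and IL1RAP (-0.24) did not pass. At 24 h 12 were lower and 2 higher with shCHD4#2 (7.01% and 4.05% of all tested genes), and 4 and 2 with shCHD4#1 (6.14% and 5.21%). At 48 h the shares of all tested genes called lower and higher were 20.3% and 17.5% with shCHD4#2 and 15.5% and 12.9% with shCHD4#1. With shFLI1 they were 22.5% and 24.2% at 24 h and 31.7% and 32.2% at 48 h. All medians stand beside a median near 0 over all tested genes, from -0.02 to 0.01.

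Close relatives of the 8 genes were called in both directions. Of 32 paralogs 20 were tested, and with shFLI1 at 48 h 6 were lower and 9 higher (5 and 3 at 24 h), where 31.7% of all tested genes were called lower and 32.2% higher (22.5% and 24.2% at 24 h). These counts are near the background, and single genes are given as such. BCL11A, the other BCL11 zinc finger factor, fell with BCL11B (log2 -1.28 at 24 h and -1.16 at 48 h), and with shCHD4#2 at 48 h its fold change was -1.52 (SE 0.24, adjusted p = 0.00026). NKX6-1, a homeobox factor of the ventral neural tube, fell (-0.84 and -1.08), whereas NKX2-1 rose at 48 h (0.93, SE 0.24, adjusted p = 0.0036). Among protein kinase C genes, PRKCI (-0.52 and -0.80) and, at 48 h, PRKCD (-0.58) fell while at 48 h PRKCA (1.15), PRKCE (1.82) and PRKCH (4.03, from 10.0 ± 6.8 to 157 ± 16 normalised counts) rose. PPP1R1B (DARPP-32), the dopamine-regulated relative of PPP1R1A, rose (2.31 and 1.62), as did PPP1R1C (3.19 and 2.79), from low levels. CAV2, which pairs with caveolin 1 in caveolae and lies 16244 bases from CAV1, fell with shFLI1 (-0.89 and -0.70) and with shCHD4#1 (-0.999 and -1.11) and was at -0.08 and 0.06 with shCHD4#2. JAK2 fell with shFLI1 (-0.55 and -0.77), TYK2 fell with shCHD4#1 (-0.31 and -0.49), and JAK3 rose at 48 h with all 3 hairpins (1.39, 1.64 and 2.25, from 6.12 ± 3.88 normalised counts in controls).

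**Figure D4:**
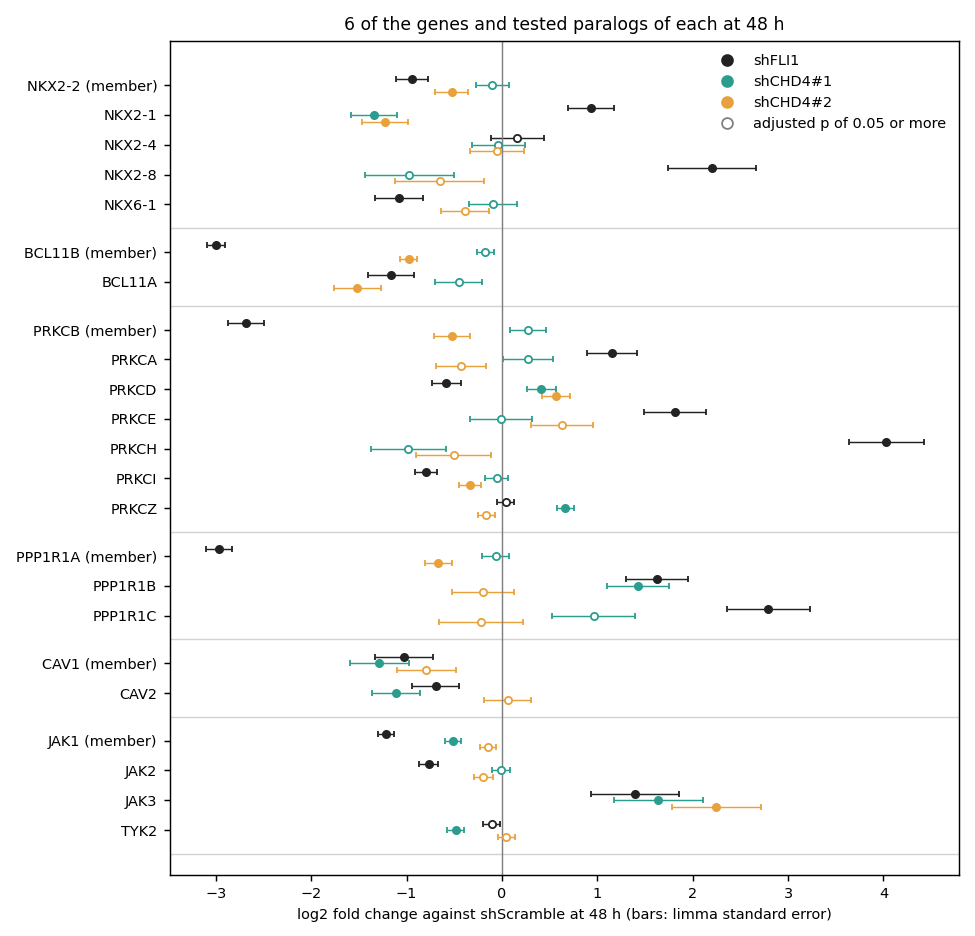
Log2 fold change against shScramble at 48 h for 6 of the genes and tested paralogs of each, for shFLI1 (black), shCHD4#1 (green) and shCHD4#2 (orange), with limma's standard error as bars; open points did not pass an adjusted p of 0.05. BCL11A and CAV2 lie below 0 with shFLI1 like BCL11B and CAV1, whereas PPP1R1B, PPP1R1C and PRKCH lie above 0, up to 4.03.

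Partners and pathway genes of the 8 (35 of 37 tested) were counted in the same way. With shFLI1 21 were higher and 5 lower at 48 h, with a median of 0.63, where 32.2% of all tested genes were called higher and 31.7% lower. At 24 h 12 were higher and 7 lower (24.2% and 22.5% of all). The genes named below were likewise picked by the smallest adjusted p with shFLI1 at 48 h. Their changes there do not stand for the list. CAVIN2, a coat protein of caveolae, rose from 6.27 ± 2.36 to 440 ± 105 normalised counts at 24 h and from 8.81 ± 1.98 to 3103 ± 1393 at 48 h while CAV1 fell. TLE4, a Groucho corepressor of the family that NKX2-2 recruits, rose by log2 3.90 and 5.06. STAT2, which acts downstream of JAK1 in interferon signalling, rose by 1.27 and 1.87, and SOCS1, an inhibitor of JAK kinases, by 2.59 and 5.51. With shCHD4#1 at 48 h 8 were higher and 6 lower (12.9% and 15.5% of all tested genes), and with shCHD4#2 10 and 7 (17.5% and 20.3%). STAT2 rose with both CHD4 hairpins at 48 h (0.63 and 0.34), and CAVIN2 did not pass with either (0.79, adjusted p = 0.31; -0.31, adjusted p = 0.69).

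For each gene, the genes with the most similar profile over the 28 libraries were ranked by Pearson's r of the log2 values among genes with a mean of at least 100; all points share the same libraries and scaling, so r describes these libraries only. NR0B1 was most like AC097381.2 (r = 0.985), RAP1GAP (0.984) and MTAP (0.984), and BCL11B like IL1RAP (0.991), ADGRA1 (0.987) and AL844908.1 (0.986). PRKCB was most like SLC49A4 (0.985), MAPT (0.982) and NR0B1 (0.980), and PPP1R1A like SORD (0.991), EEF1E1-BLOC1S5 (0.990) and EEF1E1 (0.988), the last 2 of which share exons. The r was lower for the remaining 4: JAK1 with METTL8 (0.961), SMAGP (0.958) and SHLD2 (0.956), NKX2-2 with MPST (0.947), KRI1 (0.943) and ZNF696 (0.941), LIPI with PDS5B (0.918), RHOH (0.910) and ANP32B (0.907), and CAV1 with LIFR (0.893), DIXDC1 (0.882) and AP1S3 (0.881). AC097381.2, annotated as antisense, fell from 490.5 ± 86.5 normalised counts to 4.13 ± 2.43 with shFLI1 at 48 h and to 98.9 ± 41.6 with shCHD4#2. Between pairs of the 8, r ran from 0.493 (CAV1 with NKX2-2) to 0.980 (NR0B1 with PRKCB).

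Of the tested neighbours some were called and some were not. GK and IL1RAPL1, on either side of NR0B1, were at log2 -0.10 (adjusted p = 0.49) and 0.51 (adjusted p = 0.46) with shFLI1 at 48 h, and RBM11, 5239 bases from LIPI, at -0.22 (adjusted p = 0.064). SETD3 beside BCL11B fell by 0.53 on the log2 scale, RBBP6 beside PRKCB by 0.43 and PLK1, the mitotic kinase on its other side, by 1.53. NCKAP1L beside PPP1R1A, a subunit of the haematopoietic WAVE complex, fell by 1.15. Neighbours also rose: MET, the hepatocyte growth factor receptor beside CAV1, by log2 1.90 (adjusted p = 4.5e-05), and CACHD1 beside JAK1 by 0.32. With shCHD4#2 at 48 h RBM11 fell (-0.66, adjusted p = 0.00013) together with LIPI. AL133325.3 beside NKX2-2 fell with shFLI1 (-0.87) and with shCHD4#2 (-1.19).

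In the authors' deposited table for shFLI1 at 48 h, NR0B1 was at log2 -4.59, BCL11B at -3.01, PPP1R1A at -3.12 and PRKCB at -2.80, and 6 of the 8 genes were past an adjusted p of 0.05. CAV1 (-1.29, adjusted p = 0.165) and LIPI (-0.97, adjusted p = 0.150) were not. In the authors' deposited table for shCHD4#2 at 48 h BCL11B alone of the 8 was (-1.01, adjusted p = 0.0021), with NR0B1 at -0.99 (adjusted p = 0.22). No gene of the 8 was past it in the authors' deposited tables for shCHD4#1 or for shCHD4#2 at 24 h. Many p-values in those tables are exactly 1, and how they were computed is not stated. JAK1 with shCHD4#1 at 48 h was at -0.52 there (SE 0.08) and still not past 0.05. A test against 0, as used for the limma calls, would not give that. The authors' counts and the limma counts are therefore not like for like. The authors' deposited table named for shFLI1 at 24 h gives NR0B1 at -0.03 and follows the time difference of the controls, and it was not used.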

How the data were processed

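Total RNA of SK-N-MC cultures was sequenced as paired ends from stranded libraries, per the labels' protocols. The submitters' processing notes list DESeq2 1.34.0, featureCounts 1.6.0, HISAT2 2.1.0, FastQC 0.11.7 and SAMtools 1.7, with GRCh38 as build; no source states their settings, the strand setting of counting or the annotation release. The deposited values of the authors are a signal, read counts divided by a size factor, in a 24 h and a 48 h table that hold the same 28 libraries (largest relative difference 4.98e-07). The authors' comparison tables hold log2 fold changes, p-values and, in 1 table, a score.

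Groups came from the titles. Whole reads were recovered for 100% of values (tolerance 0.02). limma-trend (limma 3.58.1, R 4.3.3) was run on log2 of the value plus 1 for 21025 genes with a mean of at least 10, each time fitted with its 4 groups and time differences with all 8. Tests were two-sided, p-values were adjusted by Benjamini-Hochberg over all tested genes and called at 0.05. Fold changes on this scale understate low genes. Replicates are called biological by the labels; p-values measure the spread between these libraries. The method was tested on simulated data. Those counts were drawn independently, with the same dispersion in every gene. They held no library kinds and no shared deviations of same-numbered libraries, so that run does not cover these features. Alternatives were a pseudocount of 10, no filter, median centring, quantile normalisation, edgeR 4.0.16 on recovered reads with TMM, a replicate block, library kind as a term or second-kind libraries only, only the groups compared, and leaving out each library. Same-numbered shScramble and CHD4 libraries deviated together in 18 of 18 pairs (r from 0.119 to 0.708). The main tests did not use this pairing, and only the replicate block among the alternatives did. Number and library kind are not separated. In 20 pairs of other numbers but the same kind r was -0.070 to 0.500 (median 0.284, against 0.414 at the same number). It was -0.612 to -0.030 in 40 pairs of different kinds. Same-numbered shFLI1 libraries deviated together with those of another group in 1 of 18 pairs (-0.150 to 0.103).

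The members and lists were chosen with earlier results of these data known. Named were the 8 members, the hairpin targets, the 3 most similar genes and the nearest tested neighbours of each, tested paralogs, and up to 4 genes per list with the smallest adjusted p with shFLI1 at 48 h; overlapping genes, 4 CD markers, PTPRC, PDGFRB and CAVIN4 were added after their values were seen. Positions are from GENCODE release 29 on GRCh38, in which 34232 of 35488 genes were found. Antisense and overlapping genes are uncertain. Values of some genes of the paralog and marker lists are not reported here.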

Additional observations from a re-analysis of the deposited data

Results flagged for a closer look

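The effect of shFLI1 differed between 48 and 24 h, by a test of the difference itself (limma, all 28 libraries), in 3 of the 8 genes. The log2 fold change at 48 h minus that at 24 h was -1.21 for NR0B1 (adjusted p = 0.0098), -0.87 for BCL11B (adjusted p = 0.00099) and -1.27 for PPP1R1A (adjusted p = 0.00019). In all 3 every shFLI1 library at 48 h was below every one at 24 h. The same held in PRKCB, NKX2-2 and LIPI, whose time differences were not called, so this order does not mark out the 3. No library stood apart from the other 4 in the 16 groups of 5 control libraries, 2 times for each of the 8 genes, by Dixon's test at its critical value of 0.71.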

How the results depend on the processing

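Leaving out single libraries aside, 1024 results kept their direction and side of the threshold under the alternatives, 26 gained a call, 12 lost one and 18 changed sign; with each library left out the numbers were 996, 13, 29 and 18. No value that changed sign passed the test.

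In the comparisons below the number of the 8 genes called changed as follows, in some of them by less than 1.5 times. Second-kind libraries leave each CHD4 hairpin 1 library a time, so a call lost there is no sign of a smaller effect. For shCHD4#1 at 24 h it was 1 and not 2 with quantile normalisation, in second-kind libraries and in a fit of only the groups compared, and 0 to 2 with a library left out. For shCHD4#2 at 24 h it was 2 and not 0 with the replicate block and with library kind as a term, and 0 to 1 with a library left out. For shCHD4#2 at 48 h it was 3 to 7 and not 6 with a library left out; it was also 4 with quantile normalisation, 5 with the block, no filter, only the groups compared or edgeR, and 7 in second-kind libraries. For the shFLI1 time difference it was 4 and not 3 with 7 of the alternatives, edgeR and the block among them. For the change of the shCHD4#2 effect from 24 to 48 h it was 1 with the block, 2 with the kind term and 0 to 1 with a library left out, and not 0. Between the CHD4 hairpins at 24 h it was 0 without the filter and in second-kind libraries, 2 with the block, 3 with the kind term and 0 to 1 with a library left out, and not 1. The block changed no other call than those given beside the results and 2 that involve shFLI1, whose numbers do not pair: PRKCB in its time difference (adjusted p = 0.0048) and NKX2-2 against shCHD4#2 at 48 h (-0.42, adjusted p = 0.018, and 0.018 also with median centring).

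The following log2 values changed sign, and the cause was not tested. With shCHD4#1 BCL11B was at 0.042 at 24 h with quantile normalisation, PRKCB at -0.095 at 24 h and NKX2-2 at 0.18 at 48 h in second-kind libraries, NKX2-2 at 0.024 at 48 h with the kind term, and PPP1R1A at 48 h at 0.038 with quantile normalisation, 0.014 with the block and 0.013 with the kind term. The time difference of BCL11B was 0.023 in second-kind libraries. With shCHD4#2 at 24 h NKX2-2 was at 0.045 with quantile normalisation, 0.051 with the block, 0.074 with the kind term, 0.16 in second-kind libraries and 0.0029 with edgeR. JAK1 was at 0.083 at 24 h and 0.052 at 48 h with quantile normalisation and at 0.049 and 0.010 in second-kind libraries. PPP1R1A between the CHD4 hairpins at 24 h was at -0.12 in second-kind libraries.

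With a library left out, the log2 ranges that crossed 0 were as follows. With shCHD4#1 they were -0.045 to 0.16 for NKX2-2 and -0.21 to 0.098 for BCL11B at 24 h, -0.31 to 0.074 for NKX2-2 and -0.14 to 0.076 for PPP1R1A at 48 h, and -0.26 to 0.0061 for NR0B1 and -0.27 to 0.035 for BCL11B in the time difference. With shCHD4#2 they were -0.19 to 0.088 for NKX2-2 at 24 h and -0.52 to 0.044 for CAV1 in the time difference. Between the CHD4 hairpins at 24 h they were -0.016 to 0.27 for NKX2-2, -0.057 to 0.17 for PPP1R1A and -0.23 to 0.096 for LIPI. For CAV1 with shFLI1 against shCHD4#2 at 48 h the range was -0.53 to 0.030.

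Median centring moved the median of all genes to -0.11 for shFLI1 against shScramble at 48 h, to -0.14 against shCHD4#1 and to -0.13 against shCHD4#2. All shFLI1 libraries were of the second kind, so comparisons with them rest on 3 second-kind controls or 1 second-kind CHD4 library where kind is held fixed. Depth did not limit the 8 genes: the fewest reads behind any value were 52.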

Other observations

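CAVIN4, a caveolar coat protein best known from muscle and chosen here after its values were seen, differed in direction between the CHD4 hairpins. It was lower with shFLI1 (log2 -0.64, limma adjusted p = 0.0021 at 24 h; -1.16, adjusted p = 0.0022 at 48 h) and with shCHD4#2 (-0.88, adjusted p = 0.0013; -2.31, adjusted p = 2.7e-05), and higher with shCHD4#1 (0.89, adjusted p = 0.0014; 0.99, adjusted p = 0.017). Its control level was 424 ± 45.4 normalised counts at 24 h and 431 ± 69.9 at 48 h (SD, n = 5).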
